A study of Mus musculus with 2 samples.

Results

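The mouse genes whose symbols begin with Kcn encode the subunits of potassium channels. A gene was included when its symbol in the deposited transcript table began with Kcn and at least 1 of its transcripts carried the protein-coding biotype, which gave 94 of the 55536 genes in the gene table. All 94 were described, including those with no count. The levels come from total RNA sequencing of gastrocnemius, the large calf muscle, in 2 libraries that the labels number as biological replicates 1 and 2. Both were made from adult male mice of 8 to 10 months labelled as the strain 5xFAD/CAST. The label is read here as a cross of the 5xFAD line with a line named CAST. Levels and printed sequences rest on the mm10 reference, and differences of the sequenced strain from it were not examined. As background, 5xFAD mice carry human amyloid precursor protein and presenilin transgenes with familial Alzheimer mutations under the Thy1 promoter, which is active in neurons. Transgene levels in this muscle were not examined. All samples here form 1 group that carries the same strain label, so nothing here compares genotypes, ages or sexes. The replicates have separate biosample entries under 1 shared donor entry, and the labels do not say whether they are separate animals, so the spread between them may be technical in part.

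Potassium channels let potassium leave or enter a cell along its gradient, and in skeletal muscle they repolarize the fibre after each action potential and hold its resting potential together with a large chloride conductance. Voltage-gated alpha subunits open on depolarization, inward rectifiers pass current near the resting potential, calcium-activated channels open when internal calcium rises, and K2P channels carry a background leak. Modulatory alpha subunits form no current alone but alter the channels of other alpha subunits, and accessory subunits bind to the pore from the membrane or the cytoplasm. By symbol, the members comprised 30 voltage-gated alpha subunits, 10 modulatory alpha subunits, 8 calcium- or sodium-activated channels, 15 inward rectifiers, 14 K2P channels, 16 accessory subunits and Kcnrg, a soluble regulator. The class of 8 was set by the prefixes Kcnma, Kcnn, Kcnt and Kcnu, and its name need not hold for Kcnu1.

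Pore-forming subunits share a selectivity filter, a short stretch of protein whose backbone strips water from potassium and which usually reads glycine, tyrosine or phenylalanine, glycine. The codons for it were searched in frame in the longest coding sequence of each gene, as GGNTANGGN or GGNTTNGGN on the coding strand. The letters TTN also cover leucine codons, so matches to the second run include glycine, leucine, glycine. All 77 members of the pore-forming classes, modulatory subunits included, held at least 1 such run, as did 0 of the 17 accessory subunits and Kcnrg. The same letters occur in 16.5% of 21853 protein-coding genes, so a match alone does not mark a channel. With the threonine codon that precedes the filter in most channels (either run with ACNNNN directly before it), 66 of the 77 matched, or 85.7%, against 1.28% of all protein-coding genes. K2P channels have a pair of pore domains in each subunit, and 11 of the 14 held at least 2 of the shorter runs. The filter windows of 8 of the 12 pore-forming members with a mean of at least 5 TPM are given here because these genes carry much of the measured message. TPM is a level scaled to the sum of all transcripts and corrected for transcript length. Each window is 30 bases of mm10 coding sequence from GENCODE M21, and the capitals mark the glycine, tyrosine or phenylalanine, glycine codons.

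Kcnj11 (chr7:46099487-46099516, minus strand): caggtgaccattGGTTTCGGCgggcgcatg
Kcna7 (chr7:45409455-45409484, plus strand): atgaccacggttGGCTATGGGgacatggca
Kcnma1 (chr14:23528404-23528433, minus strand): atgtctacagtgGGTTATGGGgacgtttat
Kcnc1 (chr7:46427967-46427996, plus strand): atgacgacactgGGCTATGGAgacatgtat
Kcnc4 (chr3:107447790-107447819, minus strand): atgacaacgcttGGCTATGGGgacatgtat
Kcnj2 (chr11:111072201-111072230, plus strand): cagacaaccattGGCTATGGTttcaggtgt
Kcnn1 (chr8:70850648-70850677, minus strand): ttcttgtccattGGCTATGGAgacatggtg
Kcng4 (chr8:119625901-119625930, minus strand): atgacgaccgtgGGCTATGGGgacatggtc

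Kcnj11 was the member of these 8 with the phenylalanine form, GGTTTCGGC, and the other 7 used a tyrosine codon. Kcnn1 matched the shorter run without the threonine codon. The 8 windows held 5 different codon sets, and Kcna7, Kcnc4 and Kcng4 shared GGCTATGGG, while Kcnc1 and Kcnn1 shared GGCTATGGA. Over the 28 pairs of windows the number of differing bases ran from 4 to 19 of 30, with a median of 11. The closest pair was Kcnc1 with Kcnc4, at 4 differences.

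The family as a whole was unevenly used in this muscle. Summed over the 94 members, the level was 309 TPM in replicate 1 and 289 TPM in replicate 2, a mean of 299 ± 14.3 TPM (SD, n = 2). The 8 highest members, Kcnj11, Kcna7, Kcnab1, Kcnj12, Kcnma1, Kcnc1, Kcnc4 and Kcnj2, held 80.8% ± 0.395 of that sum. The median member had a mean of 0.0875 TPM. A level of at least 1 TPM in both libraries was reached by 17 members, or 18.1%, where 45.7% of 22015 protein-coding genes outside the mitochondrial genome reached it. A mean of at least 5 TPM was reached by 13 members (13.8%), against 29.3% of those protein-coding genes. In the gene table no count in either library was recorded for 19 members (20.2%), against 28.1% of the protein-coding genes. These shares describe 1 tissue in 2 libraries and carry no test. In a bulk tissue, fewer cells of a type and less RNA per cell cannot be told apart.

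The libraries held 35163970 and 35412240 expected counts on annotated genes. For 93 of the 94 members the deposited posterior SD of the count was 0 in both libraries, so reads shared with other genes added no recorded uncertainty, the exception being Kcnj14. The markers of muscle fibres (Acta1, Ckm, Myh4, Atp2a1, Pvalb) summed to 68066 and 65268 TPM, so the defining markers of the labelled tissue were present. Markers of other cell types were present at lower sums, from 12.3 and 10.4 TPM for satellite cells to 356 and 287 TPM for erythroid genes. Which cells each member's message came from was not tested.

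**Figure D1:**
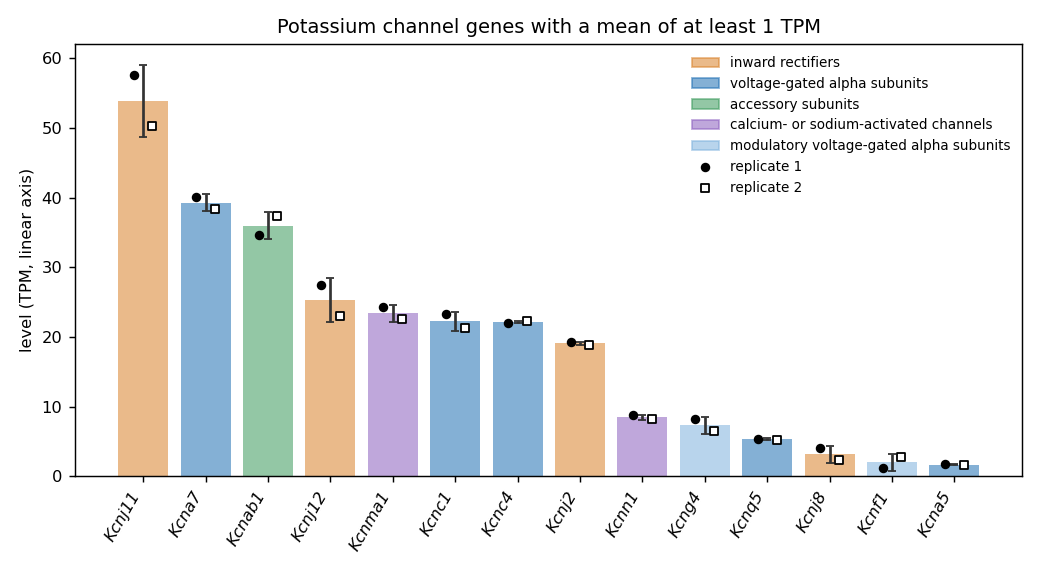
Level in TPM (linear axis) of 14 of the 17 members with a mean of at least 1 TPM, ordered by mean; bars are means of 2 libraries coloured by class, error bars are the SD, filled circles replicate 1 and open squares replicate 2. Kcnj11 stands first at 57.6 and 50.2 TPM, and 8 members lie above 15 TPM in both libraries.

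Inward rectifiers held 34.1% ± 1.62 of the family's TPM through 4 of their 15 genes. Kcnj11, the pore of the ATP-sensitive channel that couples membrane potential to the energy state of the fibre, stood at 57.57 TPM in replicate 1 and 50.22 TPM in replicate 2 (53.9 ± 5.20, SD, n = 2), from 4176 and 4007 counts. It was the highest member in both libraries and did not overlap with the next, and its mean lay at percentile 95.5 of protein-coding genes. Kcnj12 and Kcnj2 encode strong inward rectifiers that hold the resting potential, and human KCNJ2 is mutated in a periodic paralysis. Kcnj12 stood at 27.50 and 23.03 TPM (25.3 ± 3.16) and Kcnj2 at 19.26 and 18.88 TPM (19.1 ± 0.269). Kcnj12 was above Kcnj2 in both libraries, by 1.43 and 1.22 times.

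Kcnj8, the other ATP-sensitive pore, known from vascular smooth muscle and pericytes, stood at 4.01 and 2.29 TPM (3.15 ± 1.22). The remaining 11 inward rectifiers were each under 1 TPM, with 52 and 57 counts between them, and the highest of them was Kcnj3 at a mean of 0.265 TPM. Kcnj5, Kcnj6 and Kcnj9, which form G protein-gated channels of heart and neurons, had no count, and neither had Kcnj1 or Kcnj4.

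The ATP-sensitive channel needs a sulfonylurea receptor for each pore subunit. Abcc9, the receptor of the muscle channel, stood at 57.19 and 54.42 TPM, so that the ratio of Kcnj11 to Abcc9 was 1.01 and 0.923 (0.965 ± 0.0593, n = 2). Abcc8, the receptor of the pancreatic channel, stood at 1.70 and 1.75 TPM. Each receptor gene lies beside a pore gene in the genome. Kcnj11 and Abcc8 are 3759 bases apart on chromosome 7, and the ratio of Kcnj11 to Abcc8 was 33.9 and 28.7. Kcnj8 and Abcc9 are 16248 bases apart on chromosome 6, and the ratio of Kcnj8 to Abcc9 was 0.0701 and 0.0421. The pair at like levels, Kcnj11 with Abcc9, is thus made of genes on different chromosomes, while each pair of neighbours was unequal.

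Voltage-gated alpha subunits held 37.7% ± 0.739 of the family's TPM, from 8 of 30 genes at 1 TPM or more. Kcna7, a Shaker-type subunit known from skeletal muscle and heart, stood at 40.14 and 38.39 TPM (39.3 ± 1.24). Of the other Kcna genes, Kcna5 was next at 1.74 and 1.60 TPM, so Kcna7 exceeded it 23.1 and 23.99 times. The remaining 6 Kcna genes ranged from 0 for Kcna3 to a mean of 0.54 TPM for Kcna2.

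The Kcnc genes encode channels that open and close fast and support brief action potentials. Kcnc1 stood at 23.23 and 21.26 TPM (22.2 ± 1.39) and Kcnc4 at 22.06 and 22.24 TPM (22.2 ± 0.127). The ratio of Kcnc1 to Kcnc4 was 1.05 and 0.956, on either side of 1, so their order was not resolved. In the kallisto-layout table the same ratio was 1.27 and 1.04. Kcnma1, at 24.26 and 22.54 TPM, was above Kcnc1 within each library, but the ranges of these genes over the libraries overlapped. Kcnc2 had 7 and 5 counts. Kcne3, an accessory subunit reported to assemble with the Kcnc4 protein in muscle, had 4 and 3 counts, or 0.46 and 0.13 TPM.

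Kcnq5 encodes a subunit of the slowly opening M-type current. It stood at 5.41 and 5.18 TPM (5.29 ± 0.163, SD, n = 2), above Kcnq3 at 0.31 and 0.22 TPM and Kcnq1 at 0.09 and 0.17 TPM. Kcnb2, a delayed rectifier, had 2 and 3 counts. Both strands of the Kcnq1 locus are transcribed, and its noncoding antisense RNA Kcnq1ot1 had 939 and 1118 counts. The 7 and 11 counts of Kcnq1 had a posterior SD of 0 in both libraries. Whether counting used strand is not given, so they may still be uncertain where the 2 genes overlap.

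The Kcnd genes, which carry the transient current of heart and neurons, were near the detection limit together with their partners. The 3 Kcnd genes had 18 and 21 counts in all, and their means lay between 0.025 and 0.075 TPM. The 4 Kcnip genes, calcium sensors that escort Kcnd channels, had 17 and 14 counts. Dpp6 and Dpp10, membrane partners of the same channels, stood at 0.18 and 0.12 TPM and at 0.04 and 0.12 TPM. The 8 Kcnh genes ranged from 0 for Kcnh4 and Kcnh6 to 0.535 TPM for Kcnh2, with 45 and 50 counts in all.

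Modulatory alpha subunits held 3.53% ± 0.0721. Kcng4 stood at 8.19 and 6.44 TPM (7.32 ± 1.24). Kcnf1, which also forms no current alone, stood at 1.15 and 2.83 TPM, and Kcns1 at 0.75 and 0.30 TPM from 50 and 21 counts. The remaining 7 were below Kcns1, and Kcns2 had no count.

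Calcium- or sodium-activated channels held 11.5% ± 0.135. Kcnma1, the large-conductance channel opened jointly by calcium and voltage, stood at 24.26 and 22.54 TPM (23.4 ± 1.22). Its classical beta subunits, Kcnmb1 to Kcnmb4, had 19 and 10 counts between them, and the highest, Kcnmb1, stood at 0.14 and 0.06 TPM. Its gamma subunits are leucine-rich repeat proteins without a Kcn symbol. Among these, Lrrc38 stood at 14.21 and 12.76 TPM, Lrrc52 at 3.60 and 1.59 TPM and Lrrc55 at 0.28 and 0.26 TPM, and Lrrc26 had no count. In these libraries the message for known Kcnma1 partners was therefore almost wholly that of gamma subunits.

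The small-conductance channels differed by gene. Kcnn1 stood at 8.72 and 8.19 TPM (8.46 ± 0.375), Kcnn2 at 1.05 and 0.80 TPM and Kcnn3 at 0.90 and 0.84 TPM. Kcnn3 is known for its appearance in denervated and immature muscle, and here Kcnn1 exceeded it 9.69 and 9.75 times. Calm2 and Calm3, which encode calmodulin, the calcium sensor of these channels, stood at 86.5 and 80.4 TPM and at 189 and 165 TPM.

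K2P leak channels held 0.548% ± 0.0210, and none of the 14 reached 1 TPM in either library. Kcnk2, a channel sensitive to stretch and lipids, stood at 0.70 and 0.51 TPM, Kcnk5 at 0.32 and 0.40 TPM and Kcnk6 at 0.28 and 0.30 TPM. All 14 together had 130 and 115 counts, and 7 of them (Kcnk4, Kcnk7, Kcnk9, Kcnk10, Kcnk15, Kcnk16 and Kcnk18) had none. The leak conductance of muscle is known to be carried mainly by chloride, and the chloride channel Clcn1 stood at 80.1 and 78.3 TPM, 1.39 and 1.56 times Kcnj11.

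Accessory subunits held 12.6% ± 1.09, and nearly all of it was Kcnab1. Its protein, a cytoplasmic subunit with an oxidoreductase fold, speeds the inactivation of Shaker-type channels such as Kcna7. Kcnab1 stood at 34.60 and 37.34 TPM (36.0 ± 1.94), from 1616 and 1917 counts. Kcnab2 stood at 0.34 and 0.46 TPM and Kcnab3 had 1 and 0 counts. The 5 Kcne genes had 30 and 24 counts in all. Kcnrg, a soluble protein that can suppress voltage-gated channels, had 1 and 4 counts.

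**Figure D2:**
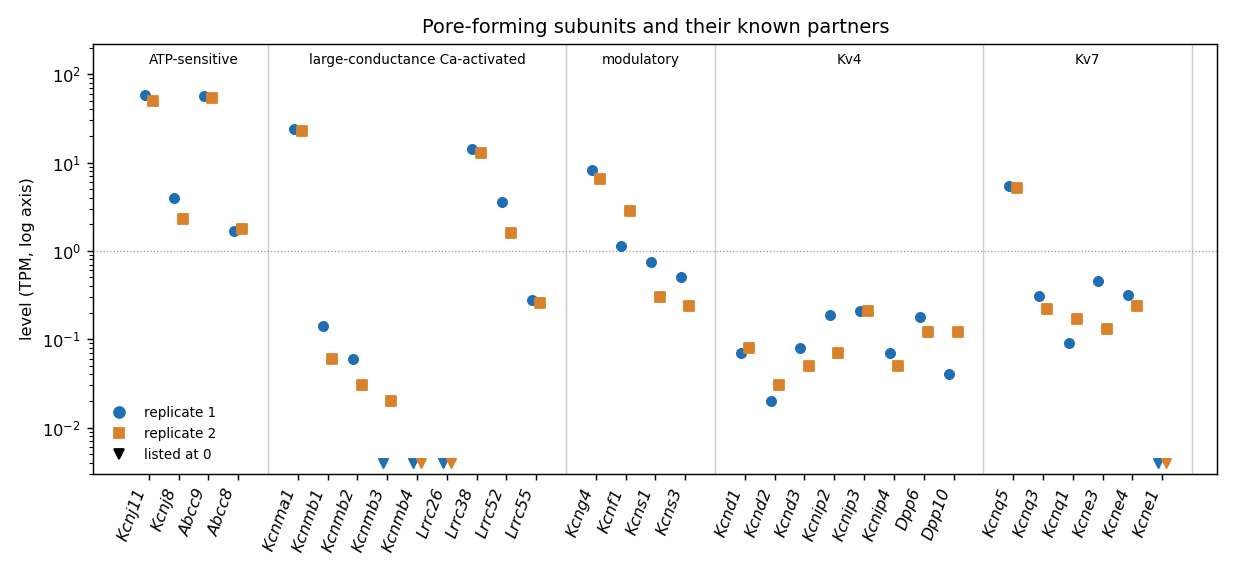
Level in TPM (log axis) of pore-forming subunits and their known partners, grouped by channel; circles are replicate 1, squares replicate 2, triangles at the foot mark genes listed at 0, and the dotted line is 1 TPM. Abcc9 lies at the level of Kcnj11, Lrrc38 near Kcnma1 with the Kcnmb genes below 0.2 TPM, and the Kcnd genes and their partners all lie below 1 TPM.

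Besides the Kcn genes, 21 partners and other potassium pathways were listed, and 14 of them reached 1 TPM in each library. The list's median was 3.09 TPM, against 0.0875 TPM for the family. The highest was Tmem38a at 567 and 534 TPM, a potassium-permeable channel of the sarcoplasmic reticulum that balances charge during calcium release, above Tmem38b at 28.97 and 27.5 TPM. Of the Hcn genes, which encode pacemaker channels, Hcn4 stood at 1.08 and 1.16 TPM. All 11 genes listed for setting the membrane potential together with potassium channels reached 1 TPM, with a median of 69.2 TPM. The sodium channel Scn4a, at 255 and 234 TPM, exceeded Kcnj11 by 4.42 and 4.67 times.

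The counts of 0 are those of the gene table, and they show that a gene was not detectable at this depth, which differs from absence. For these 19 genes, 3 counts would have been 0.00962 to 0.130 TPM in replicate 1 and 0.00905 to 0.122 TPM in replicate 2, depending on gene length. Besides those named above, they were Kcne1, Kcnip1 and Kcnmb4. The kallisto-layout table gave 9 of the 19 a level above 0 in at least 1 library, up to 0.167 TPM for Kcnk4 in replicate 1. That of 3 of them (Kcnk4, Kcnj5 and Kcnj6) exceeded the level of 3 counts in at least 1 library, so the zeros of these genes depend on the quantification. A further 17 members had at most 3 counts in each library. These limits cover counting error only.

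Within 100 kb of one another lay 17 members in 8 groups. On chromosome 11, Kcnj2 at 19.07 TPM neighbours Kcnj16 at 0.01 TPM, both inward rectifiers. A mean of at least 1 TPM was reached by 17 of all 94 members, so most were under it. In the other 7 groups every member had a mean under 1 TPM. On chromosome 3, for example, Kcna3, Kcna2 and Kcna10 stood at 0, 0.54 and 0.01 TPM.

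**Figure D3:**
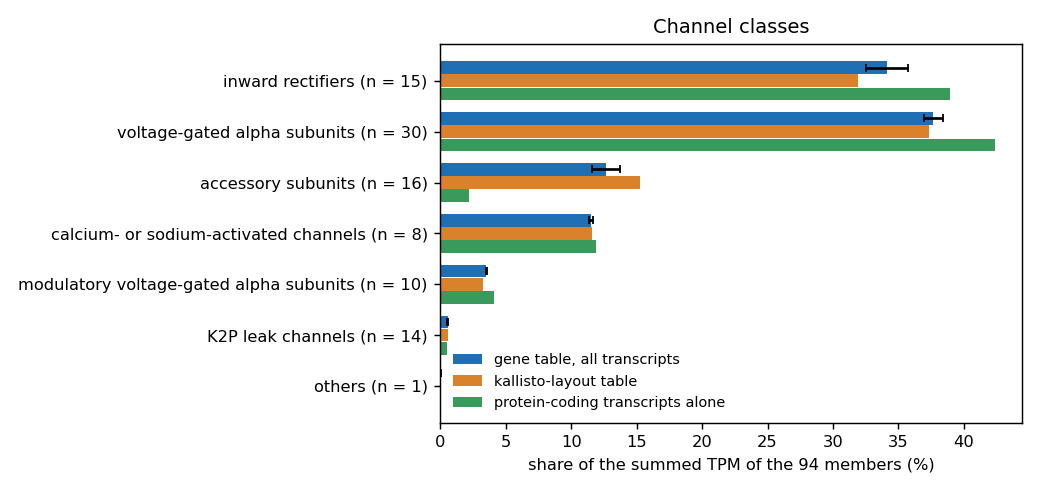
Share of the summed TPM of the 94 members (percent, linear axis) held by each class under 3 ways of counting; bars are means of 2 libraries and error bars, drawn for the gene table, are the SD. Accessory subunits go from 12.6% to 2.22% when transcripts without a coding biotype are left out.

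Which transcripts carried each gene was read from the RSEM transcript table and from the table in the layout of kallisto. Among the 17 members with a mean of at least 1 TPM, the leading transcript was the same in both tables for 16, the same in both libraries for 16, and protein-coding for 16. It held over 90% of the gene's TPM in both libraries for 9 of them, 5 of which have 1 annotated transcript. Kcnab1 was the exception in biotype and between tables, and Kcnma1 between libraries.

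Only 1 of the 6 annotated Kcnab1 transcripts, Kcnab1-201, is labelled protein-coding, and it stood at 3.60 and 4.51 TPM, 10.4% and 12.1% of the gene. Kcnab1-204, of 2849 bases and labelled a processed transcript, stood at 16.36 and 17.92 TPM, or 47.3% and 48.0%. Kcnab1-203, of 534 bases with the same label, stood at 14.49 and 14.74 TPM. Transcripts without a coding biotype thus made up 89.6% and 87.9% of the Kcnab1 level, and 94.1% and 93.8% in the kallisto-layout table, where Kcnab1-203 led with 55.6% and 54.6%. By expected counts, which are not divided by length, Kcnab1-204 took 71.1% and 69.8%, and Kcnab1-203 9.95% and 9.06%. For 13 others of the 17 the protein-coding transcripts held from 86.0% of the gene's TPM, in Kcnn1, to 100%. Over all its transcripts, Kcnab1 stood at 40.7 and 46.7 TPM in the kallisto-layout table, above Kcna7 at 38.7 and 39.1 TPM. Counted by protein-coding transcripts alone, Kcnab1 had a mean of 4.06 ± 0.643 TPM and ranked 13 of 94, instead of 3 in the gene table. These values rest on the biotype label of Kcnab1-204, which shares 2636 of its 2849 bases (92.5%) with exons of Kcnab1-201. Whether it encodes a protein was not tested, and if it does, the coding level of Kcnab1 and the 2.22% share of accessory subunits are too low.

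Kcnab1 lies on the plus strand of chromosome 3, at chr3:65109384-65378223 in mm10. Kcnab1-204 and Kcnab1-201 share 12 exons with the same ends, and their last exons differ by a few bases at the end. They differ mainly at the start. Kcnab1-201 begins with the exon chr3:65109384-65109992, and Kcnab1-204 with its own exons chr3:65188103-65188235 and chr3:65188967-65189042, and both then join the exon chr3:65266491-65266534. The junctions into the shared exon are shown because they set these transcripts apart, as do the upstream exons themselves. Lower case is the last 15 bases of the upstream exon and capitals are the first 15 bases of the shared exon.

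Kcnab1-201: tggcatgaaatatagGAATCTTGGGAAATC
Kcnab1-204: gattcactcgacaagGAATCTTGGGAAATC

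Kcnab1-203 joins the exon chr3:65297669-65297748 from an exon of its own, where Kcnab1-204 joins it from chr3:65295265-65295302.

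Kcnab1-203: acccagtgtctgaggGTTGCTGAACGGCTG
Kcnab1-204, same exon: caaatctcagatgagGTTGCTGAACGGCTG

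The RefSeq promoter table, on GRCm38.p6, held 69 of the 94 members and gave Kcnab1 starts at 64949212, 65109014 and 65188103. The last is the exact first base of Kcnab1-204. The 250 bases before it are shown because the transcript with the most Kcnab1 counts begins there, with the capitals marking the E-box (CANNTG, palindromic, so the same on both strands).

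Kcnab1 start 65188103 (chr3:65187853-65188102, plus strand): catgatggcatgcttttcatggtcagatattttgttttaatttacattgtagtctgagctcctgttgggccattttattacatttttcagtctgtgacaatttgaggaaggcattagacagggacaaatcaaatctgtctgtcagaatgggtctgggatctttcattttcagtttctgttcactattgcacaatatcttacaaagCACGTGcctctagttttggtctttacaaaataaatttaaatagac

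The window was 35.6% G or C, where the median of 32851 RefSeq promoter windows of 250 bases was 52.4%. It held 1 E-box, as 66.2% of the windows hold at least 1. Searched on both strands, the core of a MEF2 motif (CTA and TAG with NNNN between them) and TATAAA were not found in it. They occur in 3.20% and 12.4% of the windows. A match or its lack describes these letters and no more.

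Kcnma1 lies on the minus strand of chr14:23289431-24014491 and has 38 annotated transcripts, 31 of them protein-coding. Its gene level was alike in the libraries, but the division among transcripts was not. In the RSEM table Kcnma1-235 stood at 11.33 TPM in replicate 1 and 0.74 TPM in replicate 2, while Kcnma1-233 stood at 0 and 8.21 TPM. In the kallisto-layout table Kcnma1-235 stood at 9.85 and 7.80 TPM, and Kcnma1-233 was listed at 0 in both libraries. Their coding sequences differ at the 3′ end alone: Kcnma1-235 has 247 coding bases in chr14:23309018-23309264, where Kcnma1-233 has 225 of them and 22 in chr14:23300024-23300045. As a sum they held 46.7% and 39.7% of the gene in the RSEM table and 41.5% and 34.3% in the kallisto-layout table. The replicate difference between these transcripts was therefore present in one quantification and not in the other. Kcnma1-205, of 12094 bases, was at 4.52 and 4.16 TPM, similar in the libraries, and held 46.9% and 47.2% of the gene's counts, the highest share of any transcript in both libraries.

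**Figure D4:**
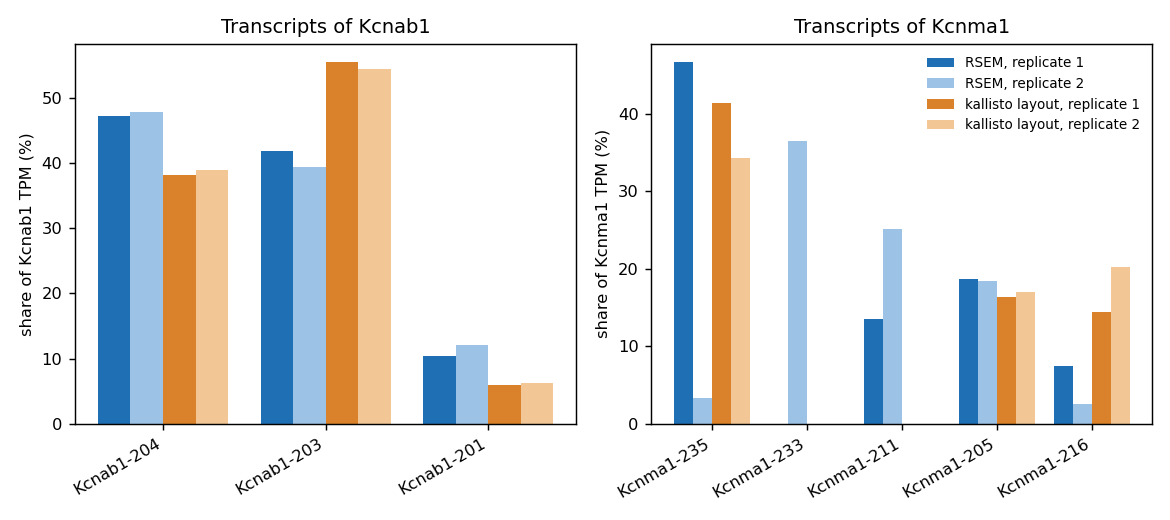
Share of the gene's TPM (percent, linear axis) held by 3 transcripts of Kcnab1 and 5 of Kcnma1, in each library and in each transcript table. The Kcnab1 bars are alike between replicates, while Kcnma1-235 goes from 46.7% to 3.29% between replicates in the RSEM table alone.

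The replicates were compared for every member as the log2 ratio of replicate 2 to replicate 1, scaled with TMM factors over the genes with a mean of at least 10 counts and with a prior of 0.5 counts. With 1 library on each side this has no replicate check, and the 95% intervals, exact binomial, cover counting error only. Among the 19 members with a mean of at least 100 counts, 2 were at least 1.5-fold apart, where 1.22% of 9741 genes of that depth were. Their median log2 ratio was 0.06, against 0.00 for all these genes, with 15 above 0 and 4 below. The middle of the members' log2 ratios, from the lower to the upper quartile, ran from 0.01 to 0.13, and that of all genes from -0.09 to 0.09.

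Kcnf1 had 138 and 360 counts, a log2 ratio of 1.43 (interval 1.15 to 1.73), and was higher in replicate 2. Of all genes with a mean of at least 100 counts, 0.626% were at least 1.5-fold higher in replicate 2. Kcnf1 has a single annotated transcript and a single coding exon. Kcnj8 had 240 and 149 counts, a log2 ratio of -0.63 (-0.94 to -0.34), and was lower in replicate 2, as 0.595% of those genes were by at least 1.5-fold. Scaled to the ERCC spike-in RNAs in place of TMM, Kcnj8 no longer reached 1.5-fold. The 8 markers of smooth muscle and pericytes, cells known for Kcnj8, summed to 155 and 123 TPM, and 5 of the 8 were lower in replicate 2. Their log2 ratios had a median of -0.20 and ran from -0.33 for Rgs5 to 0.33 for Cnn1, with Myh11 at 0.09 and Tagln at 0.07. The 7 endothelial markers summed to 66.7 and 49.1 TPM, 6 of them lower, with a median of -0.42. Lower medians were not limited to vascular cells, since the adipocyte list had -0.37 and the erythroid list -0.25. No marker of these 4 lists was at 0, and their part in the Kcnj8 value was not tested.

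After Kcnj8, the lowest ratio at this depth was -0.21 for Kcng4. The counting interval contained 0 for 10 of the 19, lay above 0 for 6 (among them Kcnab1, Kcnc4, Kcnj2 and Kcnf1) and below 0 for 3 (Kcnj12, Kcng4, Kcnj8). Kcnab1 had a log2 ratio of 0.30 (0.20 to 0.39). Below 100 counts the ratios were imprecise, as for Kcns1, with -1.18 (-2.01 to -0.44).

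**Figure D5:**
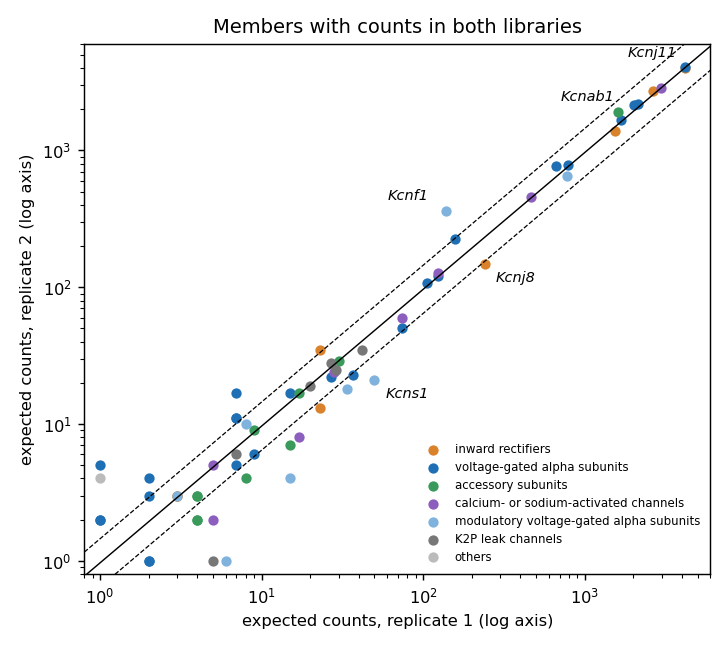
Expected counts of each member with counts in both libraries, replicate 1 against replicate 2 on log axes, coloured by class; the solid line is equality after TMM scaling and the dashed lines are 1.5-fold. Kcnf1 (138 and 360) lies above the upper line and Kcnj8 (240 and 149) below the lower line, and the scatter widens toward low counts.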

How the data were processed

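Total RNA was sequenced with a directional, ribosomal RNA-reduced library kit from 300 ng with ERCC spike-in RNA, per the labels' protocols. The authors deposited expected counts and TPM per gene and per transcript on mm10, per the labels and the file headers, with RSEM columns including a posterior SD, and a second transcript table of estimated counts and TPM in the layout of kallisto. Gene identifiers matched GENCODE M21. The aligner and program versions, and whether counting used strand, are not given in the labels or file headers used here.

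Expected counts were rounded. Ratios between libraries used TMM factors (edgeR 4.0.16, R 4.3.3) over genes with a mean of at least 10 counts, with DESeq2 1.42.0 size factors as an alternative. On simulated data of 14361 genes for this comparison of replicates, among genes with a mean of at least 100 simulated counts, 97 of 98 genes changed 2-fold and 5 of 9529 unchanged genes passed 1.5-fold. The simulation assumed a small spread between libraries. In the data 1.22% of genes of that depth passed 1.5-fold, so the simulated count of unchanged genes gives no error rate for these libraries. With 1 group there was no test of conditions. Python with numpy 2.4.6, pandas 2.3.3 and scipy 1.17.1 did the rest. Filter codons were searched in the longest M21 coding sequence. Promoter windows came from RefSeq (GRCm38.p6).

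Full values are given for the 3 highest members of each class, members with a mean of at least 5 TPM, and members at least 1.5-fold apart at 100 counts or more. No member of at least 1 TPM differed 2-fold between the quantifications. Other members were given by range and count, with some named after their values were seen. Values of some members, partners and filter windows are not reported here. The members and all lists (partners, membrane potential, cell type markers) were chosen with earlier results of these data known. The other marker lists summed, in replicates 1 and 2, to 35.0 and 27.4 TPM for Schwann cells and axons, 35.0 and 31.4 TPM for leukocytes, 205 and 151 TPM for adipocytes, 241 and 246 TPM for fibroblasts, and 51.5 and 41.3 TPM for synaptic nuclei. Alternatives covered the TPM minimum, quantification, scaling, count minimum, prior and libraries used.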

Additional observations from a re-analysis of the deposited data

Results flagged for a closer look

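Kcnq1ot1, a noncoding gene with a Kcn symbol that has no protein-coding transcript and so is no member, had 939 and 1118 expected counts in the libraries, a mean of 1028.5. This is a signal outside the genes described above and over the 3 counts taken as the detection limit. It lies antisense within the Kcnq1 locus at chr7:143203458-143296549 on the minus strand, and its level was 0.39 and 0.44 TPM. Kcnq1 itself had 7 and 11 counts. The noncoding genes Kcnd3os, Kcnab3os, Kcnmb4os1 and Kcnmb4os2 had no count in either library.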

How the results depend on the processing

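The 17 members at 1 TPM in both libraries became 14 at 2 TPM, 21 at 0.5 TPM and 21 when TPM was rescaled to nuclear protein-coding genes, which raised Kcnj11 to 120.1 TPM and the other members by like factors. Of the TPM shares, inward rectifiers were 31.9% in the kallisto-layout table and 31.1% by expected counts, accessory subunits 15.3% and 6.79%, modulatory subunits 3.27% and 3.84%, and K2P channels 0.622% and 0.449%; by expected counts, voltage-gated alpha subunits were 44.6% and calcium- or sodium-activated channels 13.2%. With protein-coding transcripts alone, a choice made after seeing the data, the shares were 39.0% for inward rectifiers, 42.4% for voltage-gated alpha subunits, 2.22% for accessory subunits, 11.9% for calcium- or sodium-activated channels, 4.07% for modulatory subunits and 0.508% for K2P channels. The 2 members at least 1.5-fold apart became 10 of 38 at a minimum of 10 counts (8.98% of all genes) and 35 of 94 with no minimum (13.3% of all genes). The last share is over 55536 genes of every biotype, also those with no count in either library, so it is not a like background for the members. Kcnf1 stayed past 1.5-fold under every scaling, quantification and prior tried, and Kcnj8 under all but the spike-in totals. The members' median log2 ratio was 0.15 with spike-in totals and -0.089 with deposited TPM, where the median of all genes was 0.09 and -0.13. A change of scaling factors moves members and all genes alike, so the spike-in totals could not change their order. With no count minimum the median was 0 for the members and for all genes. The causes were not tested. Leaving out replicate 1 or replicate 2 gave 17 or 18 members at 1 TPM. For the class shares it leaves the value of the other library, which with 2 libraries says nothing more than the SD. Leaving out a library leaves no ratio between libraries. No paired analysis was possible because the design has 1 group.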

Other observations

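Kcna7 (39.3 TPM), Kcnj11 (53.9 TPM) and Kcnc1 (22.2 TPM), 3 of the 8 highest members, lay within 1.03 megabases of chromosome 7, at chr7:45405653-46438704, and the interval also holds Kcnj14 (0.10 TPM). The interval was noticed in the data and has no test.

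Coding sequence fell in a single exon for 20 of the 94 members, among them Kcna5, Kcnf1, Kcnj11 and Kcnj2 of the 17. Lrrc52, a gamma subunit of the Kcnma1 channel, had 96 and 45 counts, a log2 ratio of -1.03 between the replicates, while Kcnma1 itself had 2959 and 2870 counts.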
